A study of Mus musculus with 57 samples.

Results

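The 7 genes Ms4a1, Ms4a4b, Ms4a4c, Ms4a6b, Ms4a6c, Ms4a6d and Ms4a7, taken by symbol out of 16475 measured genes, were followed in whole kidneys of lupus-prone mice. They were selected on values of these same arrays, and which values chose them was not recorded, so the differences below describe them without a test. Whole-kidney RNA of 57 samples from 3 strains was hybridized, 1 array a sample. NZB/W kidneys formed 4 groups, prenephritic at 16 weeks (n = 8), without proteinuria at 23 weeks (n = 11), at proteinuria onset at 23 weeks (n = 6) and nephritic at 36 weeks (n = 10). NZM2410 kidneys were nephritic (n = 5, titled Sick) or prenephritic (n = 5, titled Young), and NZW/BXSB kidneys were nephritic or prenephritic (n = 6 each), without a stated age. The labels name no allele, agent or treatment for any group. They disagree on the 36-week and onset kidneys, which 1 field calls prenephritic and another describes as proteinuric, and the second was followed. Because stage and age differ together in the comparisons of 36 with 16 weeks and of 36 weeks with onset, they cannot be told apart there. In NZM2410 and NZW/BXSB, without a stated age, age may differ with stage as well. Nothing states that samples came from separate animals, so errors measure the spread between these samples.

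Ms4a genes encode small membrane proteins that cross the membrane 4 times, and most members are used by blood and immune cells. Ms4a1 encodes CD20, the B cell surface protein that therapeutic antibodies target in people. Ms4a4b is known from mouse T cells, where it modulates activation, and Ms4a6b, Ms4a6c, Ms4a6d and Ms4a7 are known from monocytes and macrophages, Ms4a6b from T cells as well. Ms4a4c is a close relative of Ms4a4b. Members of the 2 subgroups resemble each other in sequence, and a probe can read more than 1 of them, so which member a row measured is uncertain.

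All values are log2 expression levels, compared only within a strain, and a difference of 1 is a doubling. The 3 tables had array medians of 6.97 to 7.06 in NZB/W, 7.12 to 7.20 in NZM2410 and 7.68 to 7.75 in NZW/BXSB. The authors' flag for expression above baseline covered 7 of 7 members in NZB/W and in NZW/BXSB and 6 of 7 in NZM2410, where Ms4a1 lacked it. Genes without the flag had mean levels of up to 5.43, 5.10 and 5.49 in NZB/W, NZM2410 and NZW/BXSB. A group mean of a member under these values lies in the range of unflagged genes, and the exact size of a difference from it is not known. In NZB/W that was so for Ms4a1 at 16 weeks and for Ms4a4c and Ms4a6d at 16 weeks and at 23 weeks without proteinuria. In NZM2410 it was so for Ms4a1 and Ms4a4c in both groups and for Ms4a4b and Ms4a6d in prenephritic kidneys. In NZW/BXSB it was so for Ms4a1 in both groups and Ms4a4c in prenephritic kidneys. A gene counted as called where limma gave it a p, adjusted over all genes by the Benjamini-Hochberg method, under 0.05. In whole kidneys, a difference in the number of cells of a type and a difference in RNA per cell cannot be told apart.

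All 7 members, the 4 genes known from macrophages among them, had their highest NZB/W group means in nephritic kidneys. The highest single level of Ms4a6c was in onset replicate 5 (8.74). Ms4a6b stood at 8.33 to 11.17 (median 9.48) at 36 weeks, against 6.45 to 7.37 (median 6.75) at 16 weeks. Those groups did not overlap, and the difference was 2.63 ± 0.31 (SE), a 6.19-fold difference. Ms4a7 stood at 6.96 to 9.92 (median 8.32) at 36 weeks, against 5.52 to 6.41 (median 5.86) at 16 weeks. All 10 nephritic samples again lay above all 8 younger ones, by 2.40 ± 0.32 in the mean. Ms4a6d, a gene whose product has been tied to control of the inflammasome in mouse macrophages, stood at 5.24 to 9.25 (median 7.20) at 36 weeks, against 4.64 to 5.02 (median 4.77) at 16 weeks. Its measured difference was 2.36 ± 0.37, from a 16-week level in the range of unflagged genes, with no overlap, and 36-week replicate 8 was the nearest to the younger samples. Ms4a6c, with a smaller difference of 1.37 ± 0.20, stood at 7.16 to 8.69 (median 8.04) at 36 weeks, against 6.44 to 6.84 (median 6.65) at 16 weeks. It too did not overlap, and its 36-week SD of 0.53 was the smallest of the 7 members.

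Ms4a4b, known from T cells, and its relative Ms4a4c were less even among the nephritic samples. Ms4a4b stood at 5.40 to 10.17 (median 8.33) at 36 weeks, against 5.30 to 5.96 (median 5.61) at 16 weeks, a difference of 2.21 ± 0.45. Nephritic replicates 3 and 10 lay at 5.59 and 5.40, inside the 16-week range. In those 2 kidneys Ms4a6b was at 9.15 and 8.70, above every 16-week sample, so Ms4a4b and Ms4a6b came apart there. Ms4a4c stood at 4.99 to 8.03 (median 6.03) at 36 weeks, against 4.87 to 5.36 (median 5.0) at 16 weeks, a difference of 1.28 ± 0.29. The groups overlapped, through nephritic replicates 8 and 10, at 5.2 and 4.99.

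Ms4a1, the CD20 gene, stood at 5.30 to 8.39 (median 6.43) in 36-week kidneys, against 5.03 to 5.27 (median 5.19) at 16 weeks. The groups did not overlap, the closest values being 5.30 and 5.27, and the difference was 1.27 ± 0.27. Its order among the nephritic kidneys was not that of Ms4a7: replicate 9 was second highest for Ms4a1 (7.76) and second lowest for Ms4a7 (7.02). Replicate 7, at 5.41 for Ms4a1 and 8.42 for Ms4a7, went the other way. Replicate 1 held the highest nephritic level of 6 of the 7 members, all but Ms4a6c, which was highest in replicate 6 (8.69).

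**Figure D1:**
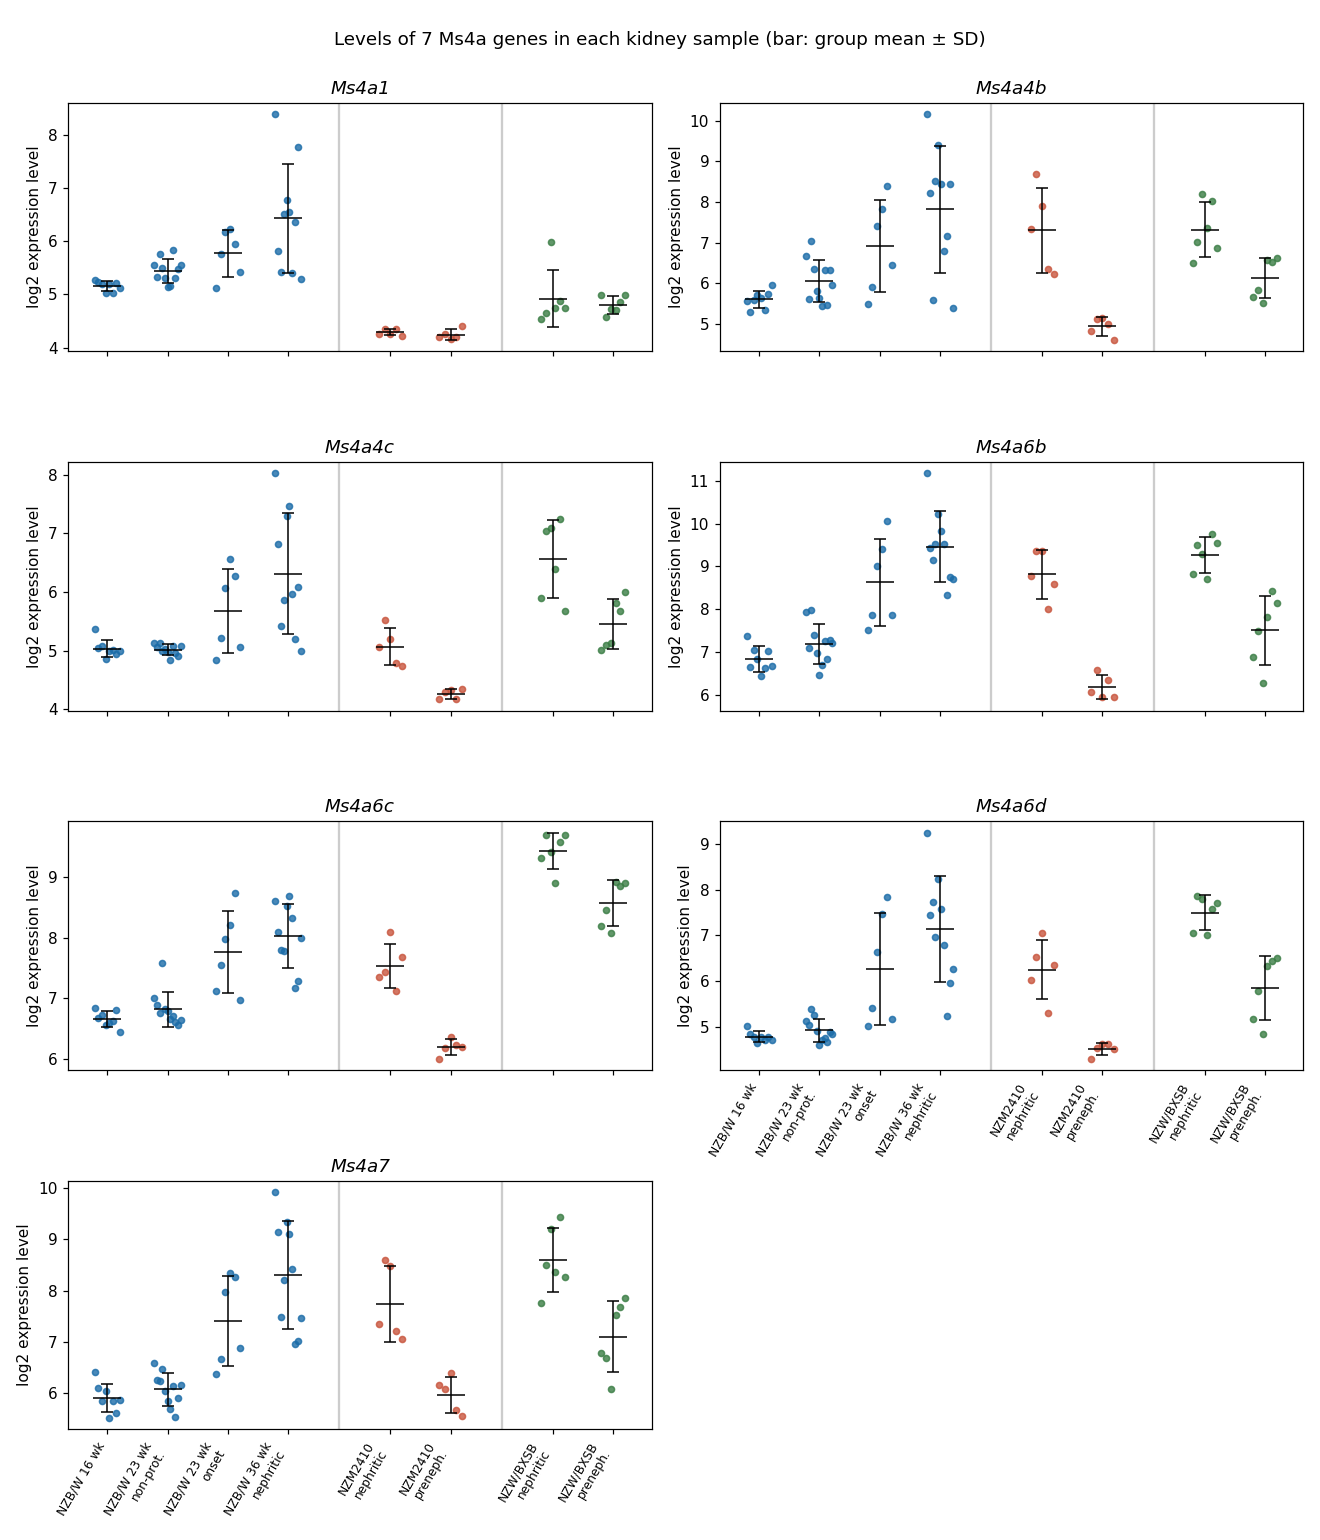
Log2 expression level of each of the 7 genes (1 panel each) in every sample, with points for samples and bars for the group mean ± SD; NZB/W groups run in order of age and stage. In NZB/W the 36-week samples spread widely and lie mostly above the 16-week ones, and Ms4a1 is nearly level in NZM2410, near 4.3.

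The count over the list is given as description only, since these contrasts may be among the values that chose the members. At 36 against 16 weeks 7 of 7 members were called higher, with a background of 11% of all genes called higher and 15.3% called lower. Their median difference was 2.21, against -0.01 over all genes. Of the 7, 5 did not overlap between the groups, against 1.38% of all genes with every nephritic sample above every younger one. The 3' minus 5' signal of Gapdh, a measure of RNA quality, was 0.204 ± 0.192 in 36-week kidneys, against 0.0152 ± 0.0961 at 16 weeks (SD, n = 10 and 8). With it as a covariate the members' median difference was 1.41, and 7 of 7 were still called.

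At proteinuria onset the 4 genes known from macrophages had the largest differences. Ms4a7 stood at 6.37 to 8.34 (median 7.43) in onset kidneys, against 5.54 to 6.60 (median 6.16) in 23-week kidneys without proteinuria, a difference of 1.33 ± 0.34. Ms4a6b stood at 7.52 to 10.07 (median 8.45) at onset, against 6.47 to 7.97 (median 7.22), a difference of 1.43 ± 0.33. Ms4a6c differed by 0.94 ± 0.21 and Ms4a6d by 1.33 ± 0.39. Ms4a4b, Ms4a4c and Ms4a1 differed by 0.86 ± 0.49, 0.65 ± 0.31 and 0.33 ± 0.29. Every member overlapped between the groups (0 of 7 apart, against 0.546% of all genes). In each of the 7, onset replicates 3, 4 and 5 were the 3 highest onset samples. For Ms4a6d they lay at 6.63, 7.48 and 7.85, and replicates 1, 2 and 6 at 5.02, 5.42 and 5.16, within or just above the range of 4.60 to 5.39 in kidneys without proteinuria.

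The members called at onset were Ms4a6b, Ms4a6c and Ms4a7, 3 of 7, with 1.71% of all genes called higher. This count rested on single kidneys: it was 0 without onset replicate 5, 1 without replicate 4 and 2 without replicate 3. Without onset replicate 1, 2 or 6 it was 4, with Ms4a6d added. Hybridization controls, added to each sample from outside the kidney, stood at 10.03 to 10.61 on onset arrays, against 9.40 to 9.92 on those of kidneys without proteinuria. With these controls as a covariate 1 of the 7, Ms4a6c, was called. The 3' minus 5' Gapdh signal was 0.108 ± 0.180 at onset, against -0.00830 ± 0.0325 without proteinuria (SD, n = 6 and 11), and with it as a covariate 2 were called, Ms4a6b and Ms4a6c. Adrenal cortex markers had a median difference of -1.10 at onset, with 0 of 6 called, and their part in the members' differences was not tested.

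The other NZB/W steps held no called member. Between 23 weeks without proteinuria and 16 weeks 0 of 7 were called by limma, against 0.0182% of all genes called higher (963 genes in both directions had an unadjusted p under 0.05). Ms4a4b had the largest difference there, 0.45 ± 0.44, standing at 5.43 to 7.04 at 23 weeks, against 5.30 to 5.96 at 16 weeks, and Ms4a4c the smallest, -0.01 ± 0.28. Adrenal cortex markers had a median difference of 1.64 in this comparison, with 0 of 6 called, adipocyte markers one of 0.78, with 0 of 5 called, and the plasma cell gene Jchain rose by 2.34 ± 0.39 (limma adjusted p = 0.00808). Between 36-week nephritic and onset kidneys 0 of 7 were called, against 0.571% of all genes called higher (3936 genes at an unadjusted p under 0.05), though 7 of 7 differences were above 0. They ran from 0.27 ± 0.21 for Ms4a6c to 0.91 ± 0.49 for Ms4a4b, and without onset replicate 5 the count was 3, Ms4a6b, Ms4a6d and Ms4a7. The median difference of adrenal cortex markers was -1.17 there, with 0 of 6 called, and the part of these markers in the members' differences at either step was not tested. The group means of 6 members ordered as 16 weeks, 23 weeks without proteinuria, onset and 36 weeks, and in each of those steps neighbouring groups overlapped in range. Ms4a4c was the exception to the order, at 5.03 ± 0.15 at 16 weeks and 5.02 ± 0.09 at 23 weeks without proteinuria (SD, n = 8 and 11). Some NZB/W samples share a part of their title, and with it as a random block (consensus correlation 0.43) 3 of 7 members, Ms4a1, Ms4a4b and Ms4a6b, were above 0 at 23 against 16 weeks, so the order of that first step turned for Ms4a6c, Ms4a6d and Ms4a7.

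**Figure D2:**
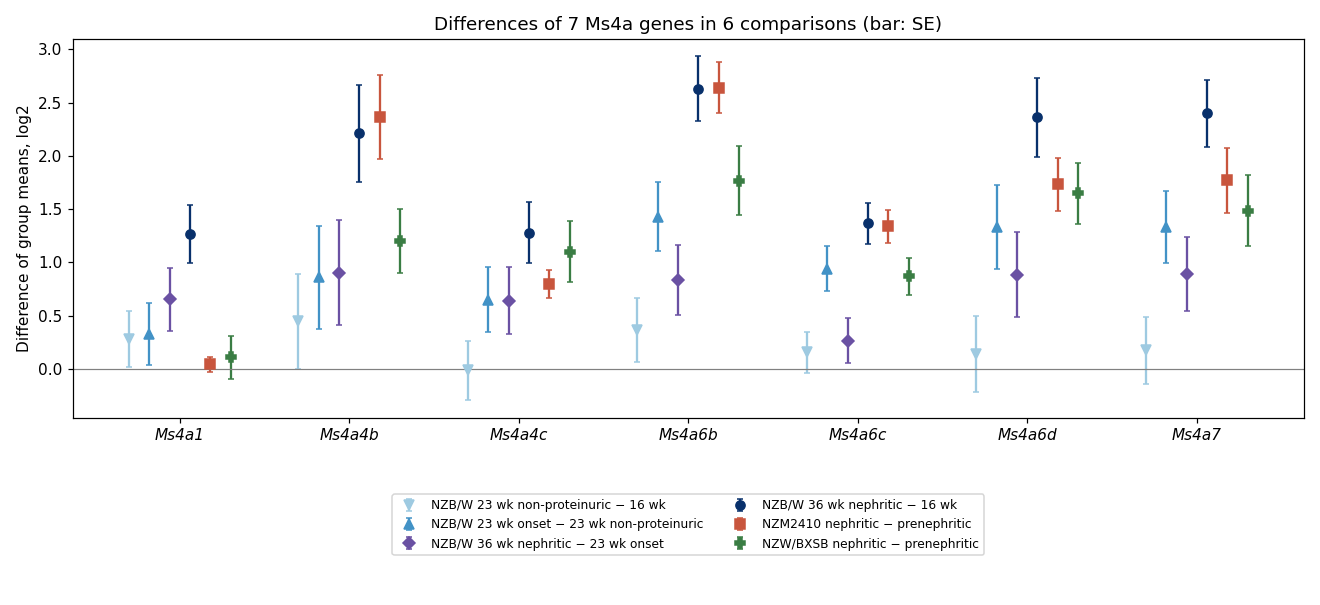
Differences of group means on the log2 scale (bars: SE) for the 7 genes, with 6 comparisons side by side for each. Differences of 1.27 to 2.63 mark 36 against 16 weeks in NZB/W, and Ms4a1 is near 0 in NZM2410 and NZW/BXSB.

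In NZM2410 kidneys 6 of the members had every nephritic sample above every prenephritic one, and the CD20 gene did not. Ms4a6b had 8.76, 9.35, 9.36, 8.0 and 8.60 in nephritic kidneys, against 6.06, 6.58, 5.95, 6.35 and 5.94 in prenephritic ones, a difference of 2.64 ± 0.24. Ms4a4b had 7.34, 8.69, 7.91, 6.34 and 6.23 in nephritic kidneys, against 4.82, 5.12, 5.15, 4.99 and 4.60 in prenephritic ones, a difference of 2.36 ± 0.39. Both were apart in all 10 samples, and nephritic replicates 2 and 3 were the 2 highest for Ms4a4b. Ms4a7 had 7.36, 8.61, 8.49, 7.22 and 7.06 in nephritic kidneys, against 6.17, 6.09, 6.39, 5.68 and 5.56 in prenephritic ones. Ms4a6d had 6.03, 6.52, 7.06, 5.29 and 6.35, against 4.30, 4.53, 4.61, 4.63 and 4.51. These came to 1.77 ± 0.30 and 1.73 ± 0.25, with replicate 4 the lowest nephritic sample for Ms4a6d and still above every prenephritic one. Ms4a6c differed by 1.34 ± 0.15 and Ms4a4c by 0.80 ± 0.13, also with no overlap. Prenephritic Ms4a4c averaged 4.27 ± 0.08 (SD, n = 5), in the range of unflagged genes.

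Ms4a1 had 4.26, 4.35, 4.25, 4.36 and 4.22 in nephritic NZM2410 kidneys, against 4.20, 4.26, 4.16, 4.20 and 4.41 in prenephritic ones. The groups overlapped, the difference was 0.04 ± 0.07, and the authors' flag did not count the gene as above baseline in that table. In all, 6 of 7 members were called higher, against 11.4% of all genes called higher and 13.8% called lower, and 6 did not overlap, against 7.81% of all genes. Their median difference was 1.73, against -0.01 over all genes.

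In NZW/BXSB kidneys the same 6 members were called and Ms4a1 was not, but the prenephritic samples reached higher. Ms4a6b stood at 8.72 to 9.76 (median 9.39) in nephritic kidneys, against 6.28 to 8.42 (median 7.65) in prenephritic ones, a difference of 1.77 ± 0.32. Ms4a6d stood at 7.0 to 7.87 (median 7.64), against 4.85 to 6.51 (median 6.06), a difference of 1.65 ± 0.29. Only these 2 members did not overlap, against 5.03% of all genes. Ms4a7 stood at 7.77 to 9.44 (median 8.44) in nephritic kidneys, against 6.08 to 7.87 (median 7.16) in prenephritic ones, a difference of 1.49 ± 0.33. Ms4a4b differed by 1.20 ± 0.30, Ms4a4c by 1.10 ± 0.28 and Ms4a6c by 0.87 ± 0.18. Prenephritic replicates 4, 5 and 6 were the 3 highest of their group for each of the 6, at 7.81, 8.42 and 8.14 for Ms4a6b where replicates 1 to 3 had 6.88, 7.50 and 6.28. Replicates 4 and 6 carry a part of their title that nephritic replicates 5 and 2 carry too, and what it stands for was not given.

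Ms4a1 stood at 4.54 to 5.98 (median 4.74) in nephritic NZW/BXSB kidneys, against 4.58 to 4.99 (median 4.80) in prenephritic ones, a difference of 0.11 ± 0.20. Nephritic replicate 3, at 5.98, was the only sample above the prenephritic range. The count of called members was 6 of 7, against 11.4% of all genes called higher and 8.73% called lower, and the median difference was 1.20, against -0.03 over all genes. With the 3' minus 5' Gapdh signal as a covariate Ms4a4b and Ms4a4c were no longer called, which left 4 of 7. That signal was -0.0808 ± 0.0501 in nephritic kidneys, against -0.121 ± 0.0141 in prenephritic ones (SD, n = 6 each). Whether strains differed in the size of any of these differences was not tested.

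Within groups, Ms4a1 had a lower median correlation with the other members than they had among themselves. Over all pairs of the 6 others, the median Pearson correlation of deviations from the group mean was 0.82 in NZB/W (35 arrays), 0.69 in NZM2410 (10 arrays) and 0.79 in NZW/BXSB (12 arrays). For Ms4a1 with those 6 it was 0.48, -0.14 and 0.32 in the same order. Ms4a1 lacked the flag in NZM2410, and its NZW/BXSB group means (4.81 and 4.92) lay in the range of unflagged genes. How far these low levels lowered its correlations was not tested. Single pairs were higher, Ms4a1 with Ms4a4b at 0.80 and with Ms4a4c at 0.66 in NZB/W, and with Ms4a4b at 0.63 in NZW/BXSB. In NZM2410 its r with Ms4a4b, Ms4a4c and Ms4a6b was -0.01, 0.27 and -0.14, and 0.68, 0.70 and 0.77 without the 2 arrays farthest from the median of Ms4a1. Arrays of a table share their processing and the members were chosen on them, so these are descriptions with no p. By Pearson's r the highest pair was Ms4a6b and Ms4a6d in NZB/W (r = 0.90, Spearman rho = 0.81) and in NZW/BXSB (r = 0.94, rho = 0.90), and Ms4a4b and Ms4a4c in NZM2410 (r = 0.94, rho = 0.81). Without the 2 arrays farthest from the median of the first gene these were 0.85, 0.92 and 0.81. By rho other pairs led, Ms4a4c and Ms4a7 in NZB/W (0.90), Ms4a6c and Ms4a6d in NZW/BXSB (0.94) and Ms4a4b and Ms4a7 in NZM2410 (0.93).

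Marker lists of the cells in which Ms4a genes are used were set beside them, Ms4a genes left out. All 24 mononuclear phagocyte markers rose at 36 against 16 weeks (limma adjusted p under the threshold), with a median of 1.48, led by the complement genes C1qc (2.56 ± 0.28, adjusted p = 1.62e-07) and C1qb (2.55 ± 0.30, adjusted p = 6.85e-07). Their summed level was 13.39 to 15.36 in 36-week kidneys, against 12.30 to 12.75 at 16 weeks, and all 24 carried the flag. At onset 13 of 24 rose, with a summed level of 12.94 to 14.61, against 12.28 to 12.97 without proteinuria. In NZM2410 22 of 24 rose, at 13.23 to 14.24 in nephritic kidneys, against 11.92 to 12.29 in prenephritic ones. In NZW/BXSB 23 of 24 rose, at 13.95 to 14.58 in nephritic kidneys, against 12.47 to 13.57 in prenephritic ones.

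The B and T cell lists held genes that passed and genes that did not. At 36 against 16 weeks 11 of 14 B cell markers rose, median 0.51, with Pou2af1, a B cell coactivator, at 2.57 ± 0.42 (limma adjusted p = 4.31e-05) and Cd72, an inhibitory B cell receptor, at 1.77 ± 0.30 (limma adjusted p = 6.51e-05). Onset had 0 of 14, NZM2410 4 of 14 and NZW/BXSB 2 of 14. Their summed level was 10.65 to 12.07 in 36-week kidneys, against 10.26 to 10.45 at 16 weeks. The 4 in NZM2410 were Cd72, Blnk, Cd79b and Pou2af1 (0.29 to 0.94), and 5 of the 14, Blk, Cr2, Fcer2a, Pax5 and Pou2af1, lacked the flag there. Of 16 T cell markers 11 rose at 36 weeks, 0 at onset, 5 in NZM2410 and 2 in NZW/BXSB, with the CD3 chain gene Cd3g at 1.36 ± 0.25 at 36 weeks and 1.21 ± 0.25 in NZM2410 (limma adjusted p = 0.000153 and 0.00391). Interferon response genes rose in 12 of 16 at 36 weeks, 3 of 16 at onset, 12 of 16 in NZM2410 and 8 of 16 in NZW/BXSB, with Oasl2 at 1.53 ± 0.26 (limma adjusted p = 5.25e-05) and Ifit1 at 1.41 ± 0.28 (limma adjusted p = 0.000280) at 36 weeks. The counts of B and T cell markers at onset and in NZW/BXSB were near the shares of all genes called higher. The part of these cells in the members' differences was not tested.

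Of the other lists at 36 against 16 weeks, plasma cell markers rose in 7 of 8, led by Jchain (3.71 ± 0.40, limma adjusted p = 1.62e-07) and Mzb1 (1.81 ± 0.31, limma adjusted p = 7.35e-05). NK and cytotoxic cell markers rose in 5 of 10, among them Nkg7 (0.66) and Gzmb (0.36), neutrophil markers in 3 of 9, with S100a9 (0.66) and Cxcr2 (0.38), and dendritic cell markers in 2 of 8, Itgax (1.18) and Ccr7 (0.27). Mast cell markers rose in 0 of 9, and the histidine decarboxylase gene Hdc fell (-1.12 ± 0.29, limma adjusted p = 0.00449). Kidney tubule markers fell in 8 of 9, with the glucose transporter gene Slc5a2 at -1.34 ± 0.21 (limma adjusted p = 2.63e-05) and the phosphate transporter gene Slc34a1 at -1.05 ± 0.23 (limma adjusted p = 0.000949). Of 4 erythroid markers Alas2, the heme synthesis gene of red cell precursors, rose (1.6 ± 0.42) and Slc4a1 fell (-0.62 ± 0.19), and 0 of 5 adipocyte and 0 of 6 adrenal cortex markers passed. In nephritic NZM2410 and NZW/BXSB kidneys neutrophil markers rose in 0 of 9, and in NZW/BXSB Cxcr2 fell (-0.32 ± 0.10, limma adjusted p = 0.0329). In the same order NK and cytotoxic cell markers rose in 2 and 1 of 10, plasma cell markers in 4 and 2 of 8, and dendritic cell markers in 1 and 1 of 8.

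Each member was then set against the mean of each list within groups. Ms4a1 followed B cell markers in NZB/W (r = 0.84, rho = 0.88) and NZW/BXSB (r = 0.83, rho = 0.83), and phagocyte markers less closely (r = 0.41 and 0.17, rho = 0.55 and 0.31). Ms4a1's r with B cell markers was 0.74 and 0.55 without the 2 arrays farthest from the list's median. In NZW/BXSB Ms4a1 also went with T cell markers at 0.80 and dendritic cell markers at 0.70 (0.49 and 0.34 without 2 arrays). Its r was 0.65 with NK and cytotoxic cell markers and 0.65 with neutrophil markers (0.34 and 0.52 without 2 arrays), so the B cell list was not alone there. With the 4 erythroid markers r was 0.09 (rho = 0.44), or 0.74 without 2 arrays. In NZB/W Ms4a1 also went with other lists, less closely than with B cell markers. Its r was 0.67 with erythroid (rho = 0.40), 0.62 with plasma cell, 0.62 with T cell and 0.54 with dendritic cell markers. Without 2 arrays these were 0.62, 0.49, 0.63 and 0.46. In NZM2410, where the gene lacked the flag for expression, its r with B cell markers was 0.69 with a rho of 0.36 (0.51 without 2 arrays). There r was 0.75 with mast cell, 0.74 with NK and cytotoxic cell, 0.71 with neutrophil and 0.70 with erythroid markers. Without 2 arrays these were 0.48, 0.41, 0.54 and 0.31. Ms4a6b followed phagocyte markers at r = 0.95, 0.87 and 0.95 in NZB/W, NZM2410 and NZW/BXSB (rho = 0.90, 0.78 and 0.95), and Ms4a7 at 0.95, 0.90 and 0.89 (rho = 0.95, 0.87 and 0.83). Without the 2 farthest arrays the values were 0.92, 0.75 and 0.91 for Ms4a6b and 0.95, 0.74 and 0.84 for Ms4a7. Ms4a6d went with phagocyte markers at 0.91, 0.79 and 0.93 (rho = 0.80, 0.75 and 0.93). Ms4a6c did so at 0.87, 0.55 and 0.88 (rho = 0.81, 0.33 and 0.87). In NZM2410 the r of Ms4a6c was higher with plasma cell markers (0.63, rho = 0.62), though 0.26 without 2 arrays, against 0.53 with phagocyte markers. Ms4a6b also went with plasma cell markers, at 0.84, 0.55 and 0.67. For Ms4a4b the r with T cell markers was 0.82, 0.65 and 0.92 (rho = 0.71, 0.49 and 0.97, and r = 0.78, 0.49 and 0.90 without 2 arrays). With phagocyte markers it was 0.74, 0.82 and 0.72 (rho = 0.71, 0.79 and 0.71, and r = 0.65, 0.60 and 0.68 without 2 arrays), so both lists went with this gene. Its r with B cell markers was 0.87, 0.10 and 0.91 (rho = 0.78, 0.02 and 0.87, and r = 0.79, 0.44 and 0.89 without 2 arrays). Ms4a4c followed the interferon response genes at 0.81, 0.69 and 0.96 (rho = 0.75, 0.65 and 0.97, and r = 0.79, 0.84 and 0.96 without 2 arrays), and the phagocyte markers at 0.85, 0.74 and 0.70 (rho = 0.83, 0.60 and 0.68, and r = 0.82, 0.45 and 0.77 without 2 arrays). The interferon list did not go with Ms4a4c alone. In NZB/W and NZM2410 its r was 0.66 and 0.75 with Ms4a4b (0.62 and 0.94 without 2 arrays). With Ms4a7 it was 0.73 and 0.53 (0.74 and 0.87 without 2 arrays).

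**Figure D3:**
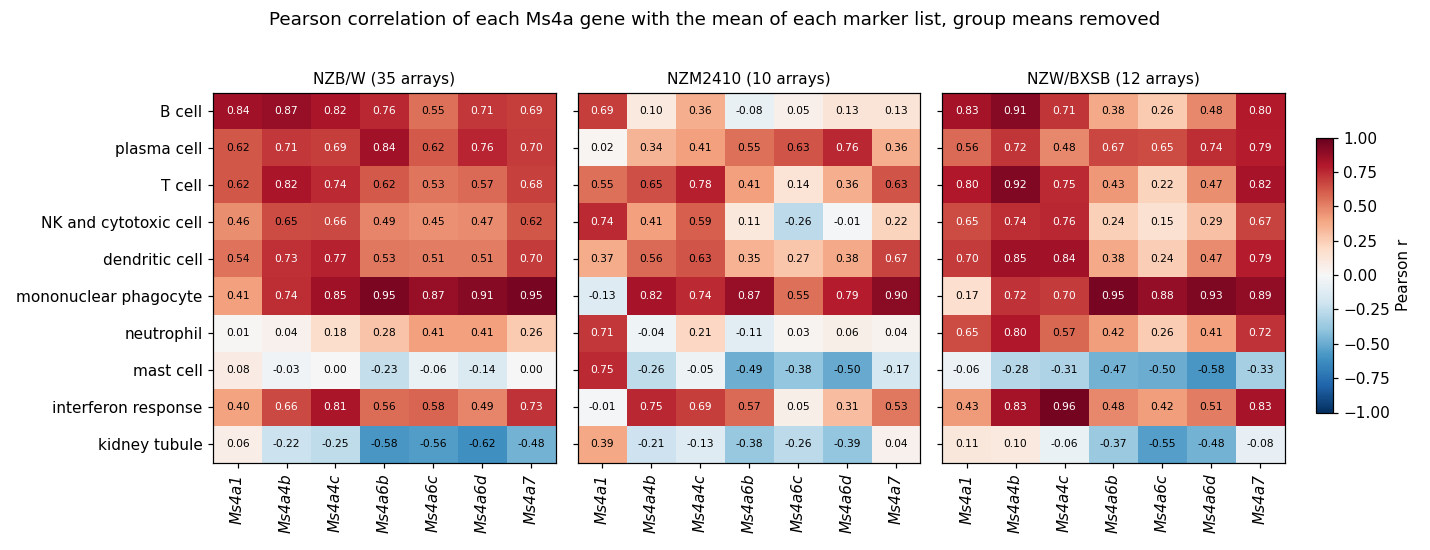
Pearson correlation of each Ms4a gene (columns) with the mean level of 10 marker lists (rows) over arrays after group means were removed, 1 panel per strain. The phagocyte row holds 0.87 to 0.95 under Ms4a6b, 0.89 to 0.95 under Ms4a7, 0.79 to 0.93 under Ms4a6d and 0.55 to 0.88 under Ms4a6c. In NZB/W, NZM2410 and NZW/BXSB the B cell row holds 0.84, 0.69 and 0.83 under Ms4a1 and 0.87, 0.10 and 0.91 under Ms4a4b. In NZM2410 Ms4a1 lacked the flag, its rho with B cell markers was 0.36, and its r with mast cell markers was 0.75.

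The genes most like each member, by the mean over strains of the correlation over all arrays, were then named for each. Ms4a6b was most like C1qb (mean r = 0.98), the protease gene Ctss (0.98) and C1qc (0.98), and Ms4a6c most like C1qa (0.95), the chemokine gene Ccl9 (0.95) and Itgam (0.95), an integrin of myeloid cells. Ms4a6d was most like Laptm5 (0.97), Ccl9 (0.97) and the nucleotide receptor gene P2ry6 (0.96), and Ms4a7 most like Cd53 (0.98) and Ptprc (0.97). Ms4a4b was most like the interferon-inducible Ifi209 (0.96), Ptprc (0.96), which encodes CD45 of all leukocytes, and Cd3g (0.96). Ms4a4c was most like Pik3ap1 (0.96), Aif1 (0.96) and Ifi209 (0.96). Ms4a1 was most like Oosp1 (0.81), Mzb1 (0.78) and the B cell scaffold gene Bank1 (0.76). These correlations hold the differences between groups as well as those within them.

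The 16 Ms4a rows of each table lie in 1 stretch of chromosome 19, and the listed genes keep to part of it. In the order of the RefSeq table of the assembly GRCm38.p6, Ms4a7, Ms4a4c, Ms4a4b, Ms4a6c, Ms4a6b, Ms4a4d and Ms4a6d follow each other among the measured genes, Ms4a1 comes before them, and Ms4a2 and Ms4a3 after. Ms4a4d, the measured gene between Ms4a6b and Ms4a6d and no member of the list, rose in 36-week NZB/W kidneys to 6.03 ± 0.76, against 5.01 ± 0.25 at 16 weeks (SD, n = 10 and 8), by 1.02 ± 0.21 (limma adjusted p = 0.000448). It also rose in NZW/BXSB, by 0.46 ± 0.13 (limma adjusted p = 0.0231), and passed neither in NZM2410 (0.32 ± 0.14, limma adjusted p = 0.123) nor at onset (0.19 ± 0.22, limma adjusted p = 0.645). Ms4a2, the beta chain of the mast cell IgE receptor, did not pass at 36 weeks (0.02 ± 0.05, limma adjusted p = 0.826), nor did Ms4a3 (-0.03 ± 0.08, limma adjusted p = 0.828), known from precursors of granulocytes and monocytes.

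Of the 9 unlisted Ms4a rows, 5 carried the flag and 1 was called higher at 36 weeks. Ms4a8a, Ms4a10, Ms4a13, Ms4a15, Ms4a18 and Ms4a19 had differences of -0.11 to 0.04 there, and none of the 6 was called. Ms4a18, which lacked the flag in NZM2410, fell there by 0.25 ± 0.09 (limma adjusted p = 0.0495), to 4.31 ± 0.09 in nephritic kidneys, against 4.56 ± 0.17 in prenephritic ones (SD, n = 5 each). Oosp1, known from oocytes in mice, lies on the far side of Ms4a3 and rose by 0.31 ± 0.10 at 36 weeks (limma adjusted p = 0.0173) and by 0.29 ± 0.09 in NZM2410 (limma adjusted p = 0.0312). Beyond it, Oosp3 fell by 0.19 ± 0.06 (limma adjusted p = 0.00914) and Mrpl16, a mitochondrial ribosome gene, by 0.38 ± 0.10 (limma adjusted p = 0.00466) at 36 weeks. Tmem176a and Tmem176b, more distant relatives with a 4-span fold, rose in nephritic NZM2410 kidneys, by 0.92 ± 0.11 (limma adjusted p = 0.000227) and 0.62 ± 0.08 (limma adjusted p = 0.000417), and in NZW/BXSB ones, by 0.41 ± 0.08 (limma adjusted p = 0.00498) and 0.39 ± 0.09 (limma adjusted p = 0.00794). At 36 weeks Tmem176a rose by 0.25 ± 0.09 (limma adjusted p = 0.0312) and Tmem176b did not pass (0.14 ± 0.08, limma adjusted p = 0.217).

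**Figure D4:**
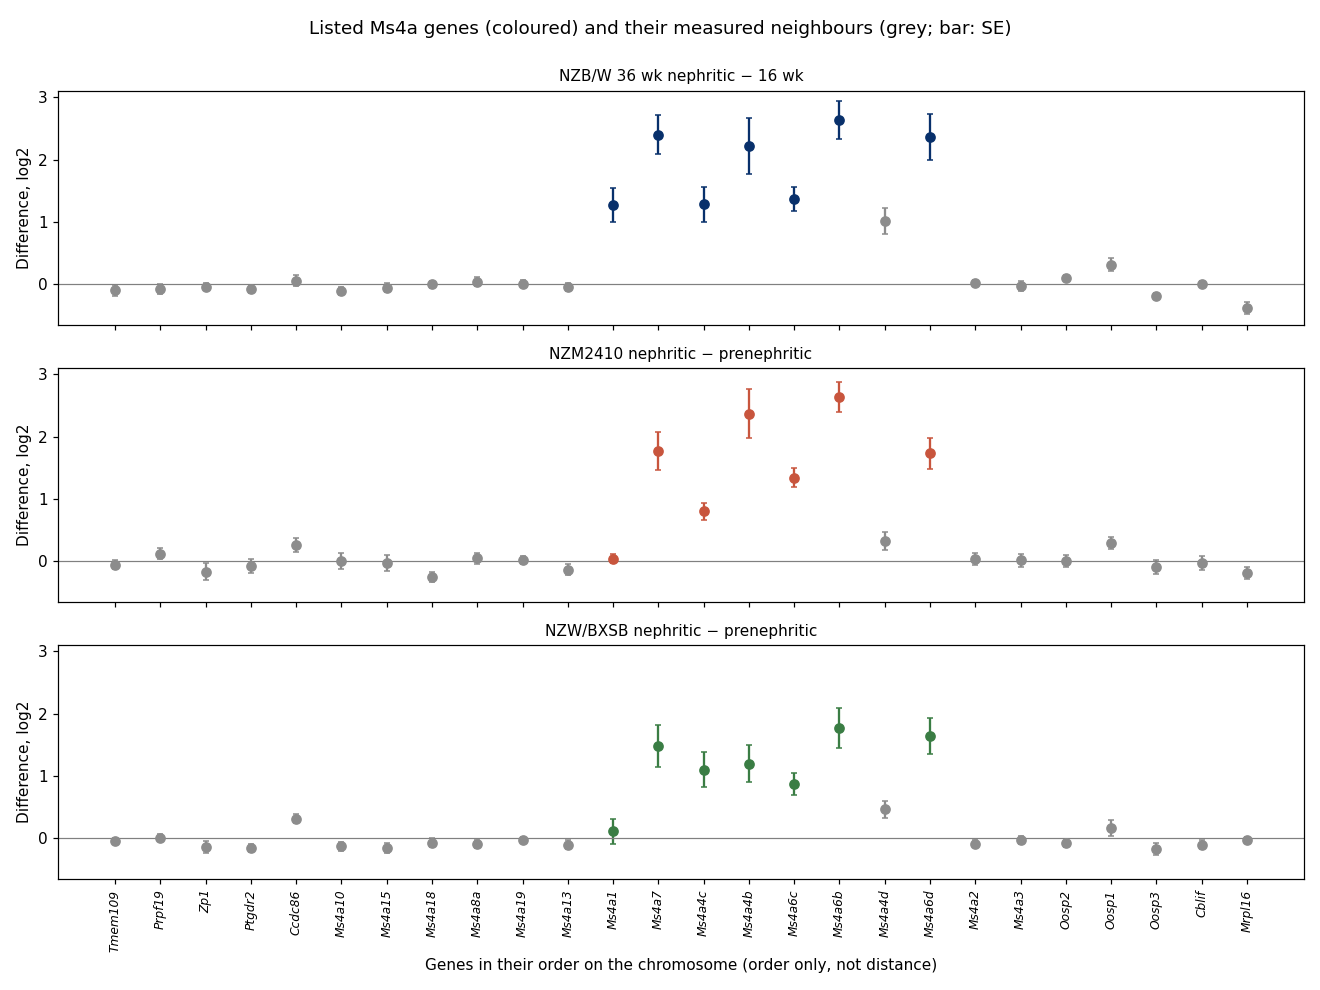
Differences on the log2 scale (bars: SE) of the listed Ms4a genes (coloured) and the 19 measured genes around them (grey) in their order on chromosome 19, with 1 panel for each of 3 comparisons. Listed genes other than Ms4a1 lie above their grey neighbours in all 3 panels, and grey Ms4a4d, next to Ms4a6b, is at 1.02, 0.32 and 0.46. The listed genes were selected on values of these arrays, so their place above the others is a description without a test.

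The stretches before the starts of neighbouring members are shown for the pairs Ms4a4b and Ms4a4c, whose deviations within groups correlated at 0.83, 0.94 and 0.83 in NZB/W, NZM2410 and NZW/BXSB, and Ms4a6b and Ms4a6c, at 0.79, 0.55 and 0.90. They are the 250 bases upstream of the annotated start on the gene's own strand, all on the plus strand, from the RefSeq table of the build GRCm38.p6. That source held 5 of the 7 genes, with 2 starts for Ms4a7 and no entry for Ms4a1 and Ms4a6d. Ms4a4b lies at chr19:11443308-11443557 and Ms4a4c at chr19:11407411-11407660. Capitals mark GAGGAA, the only letters searched for PU.1, a transcription factor of myeloid and B cells.
Ms4a4b: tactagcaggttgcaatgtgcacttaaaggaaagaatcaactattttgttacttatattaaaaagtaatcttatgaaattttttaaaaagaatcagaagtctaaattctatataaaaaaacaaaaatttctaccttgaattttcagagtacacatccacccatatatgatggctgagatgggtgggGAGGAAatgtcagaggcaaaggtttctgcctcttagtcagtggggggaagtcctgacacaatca
Ms4a4c: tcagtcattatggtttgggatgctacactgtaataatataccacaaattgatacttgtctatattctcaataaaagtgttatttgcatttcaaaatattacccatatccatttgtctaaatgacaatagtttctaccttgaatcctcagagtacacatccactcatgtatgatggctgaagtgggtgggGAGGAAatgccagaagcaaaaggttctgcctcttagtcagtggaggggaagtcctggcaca

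In a global alignment 70.3% of the columns of that pair were identical, against 44.7% to 51.5% for 13 other pairs among the 6 stretches, and the longest shared run was 20 bases. Ms4a6b lies at chr19:11518309-11518558 and Ms4a6c at chr19:11469118-11469367, and capitals mark the longest run they share.
Ms4a6b: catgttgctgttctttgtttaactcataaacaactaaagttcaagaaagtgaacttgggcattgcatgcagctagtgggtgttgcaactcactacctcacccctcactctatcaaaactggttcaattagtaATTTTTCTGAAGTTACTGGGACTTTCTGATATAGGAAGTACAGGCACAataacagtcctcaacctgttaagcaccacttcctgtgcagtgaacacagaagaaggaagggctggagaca
Ms4a6c: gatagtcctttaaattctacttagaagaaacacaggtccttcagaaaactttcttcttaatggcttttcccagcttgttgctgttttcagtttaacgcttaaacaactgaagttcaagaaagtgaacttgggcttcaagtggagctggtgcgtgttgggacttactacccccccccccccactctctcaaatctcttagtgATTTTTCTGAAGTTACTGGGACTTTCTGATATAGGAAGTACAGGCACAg

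For Ms4a6b and Ms4a6c in NZM2410 the r of 0.55 (rho = 0.27) was -0.32 without 2 arrays. The shared run is 48 bases long, against 7 to 9 bases in the 13 other pairs, and begins 118 bases before the start of Ms4a6b and 49 before that of Ms4a6c. Over their whole stretches the alignment gave 51.1% identical columns. GAGGAA was present on either strand in 2 of the 6 stretches, those of Ms4a4b and Ms4a4c, from base -64 and base -61, and in 23.3% of 32851 promoters of the same length. GAAA followed by any 2 bases and GAAA, the interferon response element, was in 0 of the 6 and in 2.98% of all promoters, and CCCNNGGG, the site letters of the B cell factor EBF, in 0 of the 6 and in 11.8%. At such shares so few stretches cannot show a lack of any of these sites, and for PU.1 no letters other than GAGGAA were searched. The EBF letters could not be looked for before Ms4a1, which had no entry. A match of letters is a description and not a site.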

How the data were processed

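Whole-kidney RNA was measured on Affymetrix arrays, and the deposited values are log2 expression levels, for which the submitters' processing notes name RMA. The array type, probe definition and build are not given in the sources used here. Each strain had a table of 16539 rows, 16475 genes and 64 controls. Symbols were updated by gene ID from RefSeq (GRCm38.p6): 16229 matched and 2163 changed.

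The deposited values went unchanged into limma 3.58.1 (R 4.3.3; lmFit, eBayes). Each strain had 1 model with a mean for every group, and 6 comparisons were taken from these models, with Benjamini-Hochberg adjustment over all genes, no filter and a threshold of 0.05. The script was tested on simulated data. Named genes were the 7 members, every other Ms4a row, Tmem176a and Tmem176b, the 3 genes most like each member, and the 2 called genes of each marker list that differed most at 36 against 16 weeks. Members and lists were chosen with earlier results of these data known. Other genes were named after their values were seen, and some results under these rules are not reported here. The number of arrays limits the precision. Alternatives are in the closing section.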

Additional observations from a re-analysis of the deposited data

Results flagged for a closer look

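Of 49 sets of samples, 7 members in the 7 groups of up to 10 samples, 2 held a sample far from the others by Dixon's test, where chance gives about 1 in 20. Ms4a1 was at 5.98 in nephritic NZW/BXSB replicate 3, with the next sample at 4.87, and that gap was 0.773 of the group's range. Ms4a4c was at 5.36 in 16-week NZB/W replicate 1, with the next at 5.07, a gap of 0.585 of the range.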

How the results depend on the processing

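Members' differences kept their direction wherever they were called, and leaving out 1 sample at a time gave 7 members called at 36 against 16 weeks, 0 to 4 at onset, 0 at 23 against 16 weeks, 0 to 3 at 36 weeks against onset, and 6 in NZM2410 and in NZW/BXSB. The median differences then ran from 1.95 to 2.46, 0.75 to 1.15, 0.14 to 0.25, 0.61 to 1.06, 1.53 to 1.90 and 1.02 to 1.36. At onset, array weights gave 6 in place of 3 called members, a fit of just the 2 groups 5, and the count was 0 at an adjusted p under 0.01, 0 with the replicate block and 1 with the hybridization controls as a covariate. With the replicate block 2 members, Ms4a6b and Ms4a7, were called at 36 weeks against onset, where the count was 0 without it. Same-numbered samples did not deviate together (mean correlation 0.02 over 44 pairs in NZB/W), so the paired fit joins samples by number only. With the 3' minus 5' Gapdh signal, 0.204 ± 0.192 at 36 weeks and 0.0152 ± 0.0961 at 16 weeks, as a covariate, the median difference was 1.41 in place of 2.21, with 7 members called. The cause was not tested. In NZM2410 the block on the title could not be fitted, since 1 title part was shared. In NZW/BXSB 4 members were called at an adjusted p under 0.01 or with the Gapdh covariate, Ms4a4b and Ms4a4c being lost both times, and at onset 2 with the Gapdh covariate. Leaving out 1 sample gave 39 to 452 genes called at onset and 19 to 2008 at 36 weeks against onset. Counts over all genes also moved with the other settings. At 36 against 16 weeks 4338 genes were called, 6542 with array weights, 2631 at 0.01, 2527 with the Gapdh covariate and 2196 with the shared part of the titles as a random block. At onset 345 were called, 2167 with array weights, 1141 with just the 2 groups, 224 with the hybridization covariate, 210 with the title block, 189 with the Gapdh covariate, 114 with the replicate block and 88 at 0.01. At 23 against 16 weeks 3 were called, 3697 with array weights, 19 with just the 2 groups and 0 with the title block. At 36 weeks against onset 382 were called, 2352 with array weights, 1882 with the replicate block, 205 after quantile normalization, 110 with the Gapdh covariate, 70 with the title block, 13 at 0.01, 9 with the hybridization covariate and 1 with just the 2 groups. In NZM2410 4161 were called, 6449 with array weights and 2378 at 0.01, and in NZW/BXSB 3319, 5898 and 1531. Of 1000 values of single members under an alternative, 5 moved by more than the spread between samples.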
